A study of Mus musculus with 8 samples.

Results

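The genes described here mark dividing cells: Mki67, Top2a, Ccnb1, Ccna2, Mcm2, Pcna, Birc5, Bub1, Aurkb and Cenpk. They were taken by gene name from the noncontrol probes of the array, which gave 25 spots of 16 probes for the 10 genes, out of 59305 spots of 55681 probes in all. RNA came from the olfactory bulb of male C57BL/6J mice aged 56 days, in 4 groups. The C-C mice lived in a standard cage and breathed clean air, and the C-DE mice lived in a standard cage and inhaled diesel exhaust. The EE-C mice lived with environmental enrichment, a larger cage with a running wheel, a small house and toys, and breathed clean air, and the EE-DE mice had enrichment and diesel exhaust. Each housing began with the dams at gestational day 14 and was kept up in the inhalation chambers, weaning was at postnatal day 27, and the exhaust was inhaled at 90 µg/m3, 8 h a day, for 28 days between postnatal days 28 and 55. Each group was 1 pool of RNA, as the methods state, with 1 bulb from each rearing cage, and every pool was run on 2 one-colour Agilent arrays. The 2 arrays are therefore technical copies of 1 sample, the pools of one housing drew on the same litters, and the spread between mice was not measured. Of the marker genes of bulb neurons, 11 of 11 were well above background on all 8 arrays. So were 9 of 9 genes of mature olfactory mucosa and 10 of 10 of marrow and neutrophils. Detection alone therefore does not set the bulb apart from other tissue.

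A cell that divides copies its DNA in S phase and separates the copies in mitosis, and most of the transcripts that run these steps are made only while the cycle turns. Few cells of the adult bulb divide: neuroblasts arrive from the subventricular zone through the rostral migratory stream and stop cycling as they become granule and periglomerular interneurons, while oligodendrocyte precursors, microglia and endothelial cells divide slowly in place. Enriched housing with a running wheel is best known for its effect on neurogenesis in the hippocampus. In a whole bulb, fewer cycling cells and less RNA per cycling cell cannot be told apart.

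The probes are single-stranded 60-base sequences, positioned below on mm9, the build of the array's annotation. Those shown are probes of genes whose several probes gave different readings, together with the only Aurkb probe. They are in lower case, and capitals mark the polyadenylation signal AATAAA, searched on the probe strand alone. The 2 Cenpk probes lie 6565 bases apart, at chr13:105032892-105032951 and chr13:105039517-105039576 on the plus strand, and are shown whole.
Cenpk A_55_P2077263: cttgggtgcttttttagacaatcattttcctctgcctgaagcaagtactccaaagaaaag
Cenpk A_55_P2106150: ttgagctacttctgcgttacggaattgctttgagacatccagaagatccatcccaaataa
The Mki67 probes lie at chr7:142881591-142881650 and chr7:142884764-142884823 on the minus strand, 3113 bases apart. The first 30 bases of the former and the whole of the latter are shown.
Mki67 A_51_P253803: atactactgctactgcctgagtttaaggaa
Mki67 A_55_P2073377: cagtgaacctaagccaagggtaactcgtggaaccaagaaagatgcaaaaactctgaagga
The Birc5 probes lie at chr11:117711112-117711171, chr11:117714057-117714116 and chr11:117716978-117717037 on the plus strand. The array's annotation pairs the first and the second each with 1 transcript model, and the third with both models. The first is shown whole, the second by its first 30 bases and the third by its last 30.
Birc5 A_55_P1983768: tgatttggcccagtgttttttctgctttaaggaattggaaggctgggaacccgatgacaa
Birc5 A_55_P1983769: tcttgaaactggacagacagagagccaaga
Birc5 A_55_P1983773: taccacggggtaacggAATAAAatcacttg
Of the Ccnb1 probes on the minus strand, the one at chr13:101551224-101551283 is shown whole and the one at chr13:101548722-101548781 by its first 30 bases.
Ccnb1 A_55_P1952256: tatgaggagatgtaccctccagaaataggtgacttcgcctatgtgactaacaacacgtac
Ccnb1 A_55_P2065671: gccacctggaaaagaatcctgtctcatttg
The Aurkb probe lies at chr11:68865105-68865164 on the plus strand and is shown by its last 30 bases.
Aurkb A_55_P1980631: tAATAAAgtcttaaatgtttcatgtttttg
AATAAA stood in 2 of the 16 member probes, against 10.1% of all noncontrol probes. The Aurkb probe had the lowest GC content of the members, 20%, against 43.3% for the median noncontrol probe.

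A probe was kept where it was well above background on all 8 arrays, with no outlier flag and with an accession as its name, which held for 9 probes of 7 members and for 21709 probes in all. Levels below are log2 signals relative to each array's own 75th percentile over noncontrol spots, in the order first and second array. Levels of different probes are not compared, since each probe has its own binding. Pools were compared by the mean log2 level of their arrays, and the range given with a difference covers the 4 ways of setting one array against another across the 2 pools. A difference of 1.5-fold or more, 0.585 in log2, counted as a call.

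The 7 measured genes differed little among the 4 pools, whichever pools were compared. No member probe reached 1.5-fold between the housings in clean air (EE-C/C-C, 0.825% of all probes), with exposure in standard cages (C-DE/C-C, 0.576%) or with exposure under enrichment (EE-DE/EE-C, 0.944%). One member probe of 9 passed in EE-DE/C-DE, against 0.636% of all probes, and the same one passed in EE-DE/C-C, against 0.815%. It was the Cenpk probe A_55_P2077263, on the reading of 1 array, while the other Cenpk probe did not pass in any comparison. With 1.5-fold asked of all 4 pairings, 0 of the 9 passed anywhere, against 0.0461% of all probes for EE-C/C-C, 0.175% for EE-DE/C-DE, 0.106% for C-DE/C-C, 0.0783% for EE-DE/EE-C and 0.111% for EE-DE/C-C. Leaving Cenpk aside, the largest pool difference was that of Mki67 in EE-DE/C-DE, 0.32.

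**Figure D1:**
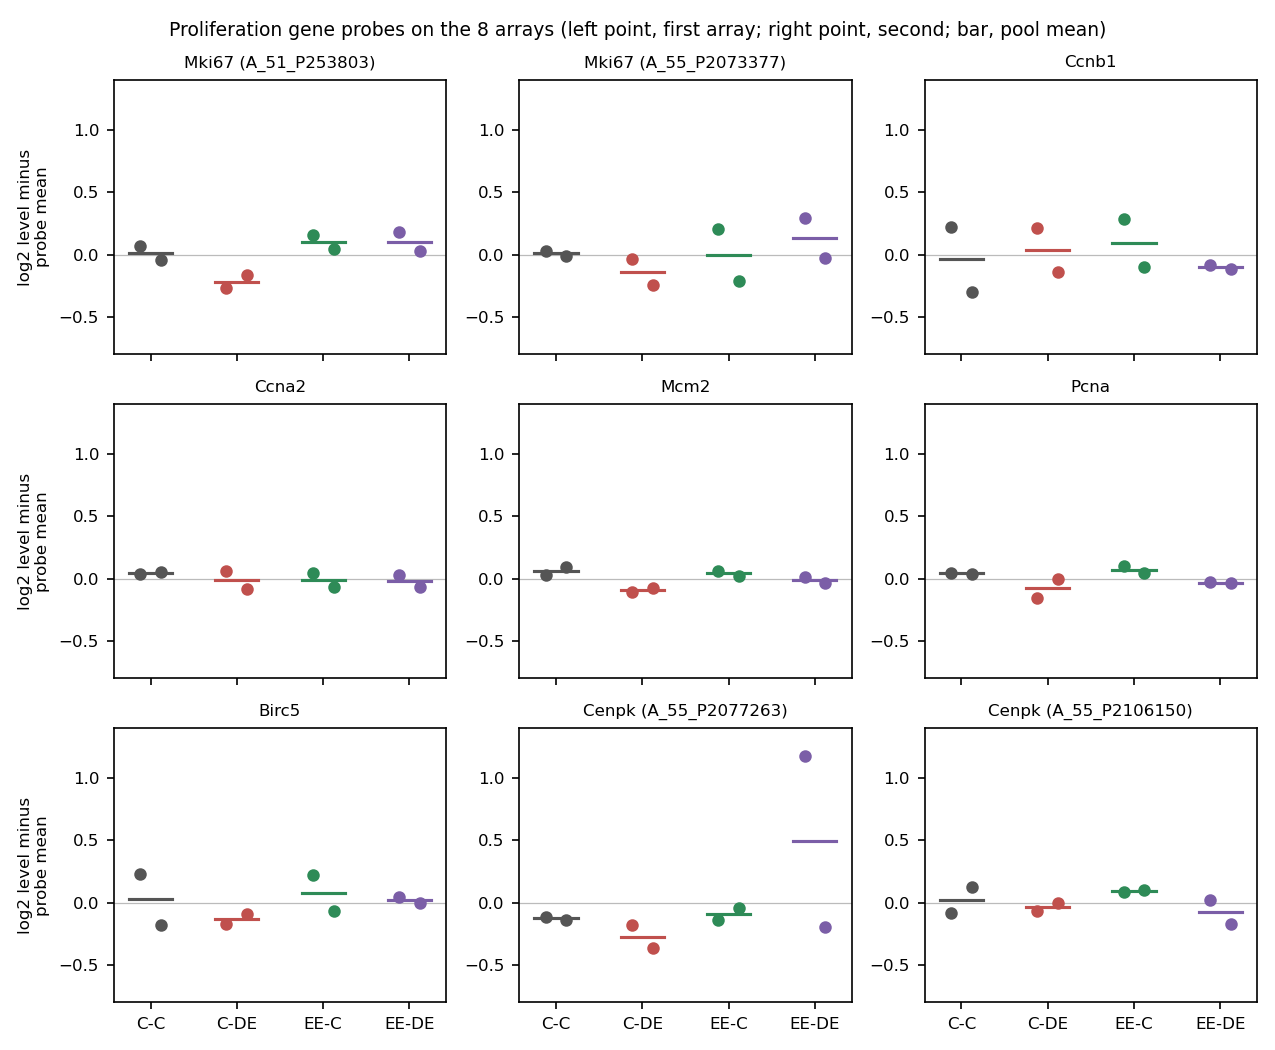
Log2 level of the 9 kept probes on each array, minus the probe's own mean over the 8 arrays, by pool; points are the 2 arrays and bars their mean. Points lie near 0 for every probe except Cenpk A_55_P2077263, whose first EE-DE array stands alone.

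Pcna, the sliding clamp that holds DNA polymerase on its template, had a bright probe. Its levels were 3.09 and 3.08 (C-C), 2.88 and 3.04 (C-DE), 3.14 and 3.08 (EE-C) and 3.01 and 3.01 (EE-DE). All 4 exposed arrays lay below all 4 arrays from clean air, by small amounts: exposure differences were −0.12 in standard cages (C-DE/C-C, pairings from −0.21 to −0.04) and −0.10 under enrichment (EE-DE/EE-C, pairings from −0.13 to −0.07). Between housings it was 0.03 in EE-C/C-C and 0.05 in EE-DE/C-DE, and the pools overlapped in both. With normexp background correction these were 0.13 and 0.09. The annotated position of this probe, chr2:132075022-132075054, covers 33 of its 60 bases, as positions under 60 bases do for 1.21% of the noncontrol spots with a position. Which transcript binds the other bases was not tested.

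Mcm2, a subunit of the helicase that licenses replication origins, read −2.28 and −2.22 (C-C), −2.42 and −2.39 (C-DE), −2.25 and −2.29 (EE-C) and −2.30 and −2.35 (EE-DE). The C-DE arrays were the lowest, and the difference in C-DE/C-C was −0.15, with pairings from −0.20 to −0.11. The EE-C and C-C pools overlapped, and EE-DE/EE-C was −0.05, with pairings from −0.10 to −0.01. With normexp background correction in place of the scanner's own, EE-DE/EE-C became 0.03, EE-C/C-C moved from −0.02 to 0.05 and EE-DE/C-C from −0.07 to 0.08. The difference for C-DE/C-C shrank to −0.07 under that correction, and that for EE-DE/C-DE grew from 0.08 to 0.15.

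Ccna2 encodes cyclin A2, which drives cells through S phase into mitosis. It was the flattest member, with levels of −2.33 and −2.31 (C-C), −2.30 and −2.44 (C-DE), −2.32 and −2.43 (EE-C) and −2.34 and −2.43 (EE-DE). Its pool means spanned 0.065, and every neighbouring pair of pools in their order overlapped.

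Ccnb1 encodes cyclin B1, the partner of the kinase that starts mitosis. Its kept probe was dim, at 30.8 to 43.0 intensity units, and read −4.00 and −4.52 (C-C), −4.00 and −4.36 (C-DE), −3.93 and −4.32 (EE-C) and −4.30 and −4.33 (EE-DE). The first arrays of 3 pools stood 0.35 to 0.52 above their second arrays, more than the 0.19 that separated the highest from the lowest pool mean, and no neighbouring pools were apart. The annotation also pairs each Ccnb1 probe with 1 predicted transcript model, so its signal may be shared with a near-identical copy. The other Ccnb1 probes were well above background on 1 and on 0 of the 8 arrays.

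Birc5 encodes survivin, a subunit of the chromosomal passenger complex. The probe shared by both transcript models read −1.64 and −2.06 (C-C), −2.04 and −1.97 (C-DE), −1.65 and −1.94 (EE-C) and −1.83 and −1.88 (EE-DE). The duplicates of C-C lay 0.41 apart. Both C-DE arrays lay below both arrays of EE-DE, by 0.15 between the pool means with pairings from 0.09 to 0.22 (0.09 with normexp correction), and below both arrays of EE-C, and C-C overlapped every other pool. The probe paired with the first transcript model alone read 15.0 to 26.5 intensity units and was well above background on 7 arrays but not on the first EE-DE array. The probe of the second model alone was well above background on 1 array, at 5.46 to 12.5 units over the 8.

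Mki67 encodes the Ki-67 protein that coats mitotic chromosomes and is the usual histological marker of cycling cells. Its probe A_51_P253803 read −2.03 and −2.14 (C-C), −2.37 and −2.26 (C-DE), −1.94 and −2.05 (EE-C) and −1.92 and −2.07 (EE-DE). Both C-DE arrays lay below all the others, with −0.23 in C-DE/C-C (pairings from −0.34 to −0.12) and 0.32, or 1.25-fold, in EE-DE/C-DE (pairings from 0.19 to 0.45). The other 3 pools overlapped one another. Probe A_55_P2073377 read −2.79 and −2.83 (C-C), −2.86 and −3.07 (C-DE), −2.62 and −3.04 (EE-C) and −2.53 and −2.85 (EE-DE). It gave −0.15 in C-DE/C-C, with pairings from −0.27 to −0.03, and 0.28 in EE-DE/C-DE, with pairings from 0.01 to 0.54. Both probes of Mki67 put C-DE lowest, under the 1.5-fold threshold. Across the alternatives run, the 4 differences kept their sign, with values from −0.29 to −0.14 and from −0.26 to −0.04 in C-DE/C-C, and from 0.24 to 0.40 and from 0.12 to 0.44 in EE-DE/C-DE. By list medians, genes of mature olfactory mucosa, marrow, bone and red cells ran the same way in both of these comparisons. Their values are given with the marker lists further on.

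**Figure D2:**
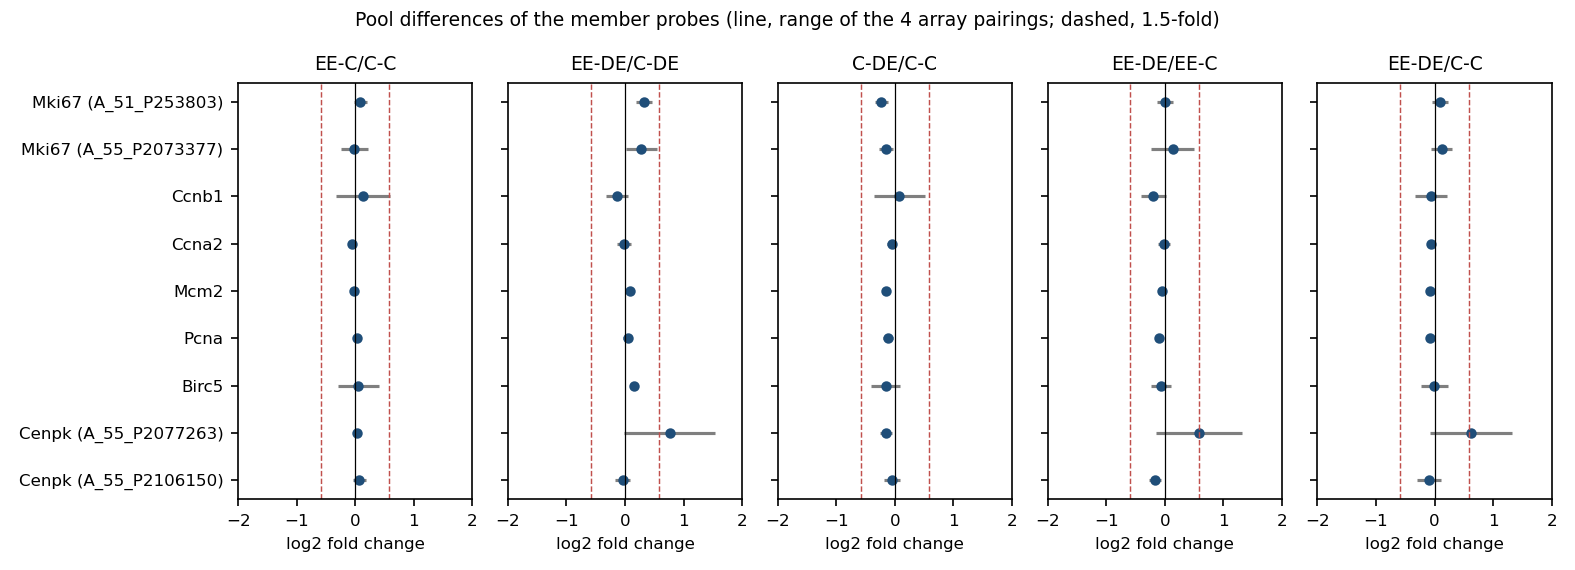
Log2 difference between pools for each kept probe in 5 comparisons; points use the mean of both arrays, lines span the 4 array pairings and dashed lines mark 1.5-fold. The only points past the threshold are those of Cenpk A_55_P2077263, at 0.77 in EE-DE/C-DE and 0.62 in EE-DE/C-C, whose lines reach below 0, and the line of Ccnb1 in EE-C/C-C just reaches the threshold, at 0.59.

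Cenpk encodes a subunit of the constitutive centromere-associated network, on which the kinetochore is built. It is also among the genes that the study selected as changed on these same arrays, so its call here is no independent evidence. Probe A_55_P2077263 read −2.65 and −2.68 (C-C), −2.72 and −2.91 (C-DE), −2.68 and −2.58 (EE-C) and −1.36 and −2.73 (EE-DE). The first EE-DE array stood alone: 279 intensity units, against 88.2 to 116 on the other 7 arrays. The mean of the 2 EE-DE arrays gave 0.77 in EE-DE/C-DE (1.70-fold, pairings from −0.01 to 1.54), 0.62 in EE-DE/C-C (1.53-fold, pairings from −0.08 to 1.31) and 0.58 in EE-DE/EE-C (pairings from −0.15 to 1.32), the last just under the threshold. Without the first EE-DE array these became 0.08, −0.07 and −0.10. No pair of arrays that leaves it out reached 1.5-fold.

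The second probe of the gene, A_55_P2106150, read −2.23 and −2.02 (C-C), −2.22 and −2.15 (C-DE), −2.06 and −2.05 (EE-C) and −2.12 and −2.32 (EE-DE). EE-DE had the lowest pool mean, with log2 differences of −0.04 from C-DE, −0.09 from C-C and −0.17 from EE-C. The first EE-DE array, high for the other probe, was inside the range of the other arrays for this one. The annotation pairs A_55_P2077263 with 2 transcript models of Cenpk and A_55_P2106150 with 1 of them. Both EE-DE arrays carried the same RNA, and the first probe read 279 units on one and 101 on the other.

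Facts of the spot itself stand beside this reading. On the first EE-DE array the pixels of the A_55_P2077263 spot had an SD of 160 at a mean of 400, a CV of 40.0%, against 11.9% to 19.3% on the other 7 arrays. Of the 3756 noncontrol spots with a mean pixel signal of 300 to 500 on that array, 0.532% had a CV at least as high. The scanner software raised no nonuniformity flag. The next spot in the same column of the array read 262 there, against 96.5 to 128 on the other arrays, and the one 2 rows away read 22.6, against 1.83 to 2.27. On the other side of the Cenpk spot, the spots 1 and 2 rows away read 31.9 and 184, against 18.6 to 31.7 and 145 to 183. Over the whole array, dim spots included, 19.7% read 2-fold higher on the first EE-DE array than on the second. Among the neighbours in the square of 7 spots on a side around the Cenpk spot it was 27.9%. In the square of 3 spots on a side around the Cenpk spot, 5 neighbours were well above background on both EE-DE arrays. The median of their differences between the duplicates was 0.09, and 1 of them lay past 1.5-fold, the next spot in the column given above. In the square of 7 spots on a side, 23 neighbours were well above background on both, and 1 lay past 1.5-fold, the same spot. The part of the spot in the reading was not tested.

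**Figure D3:**
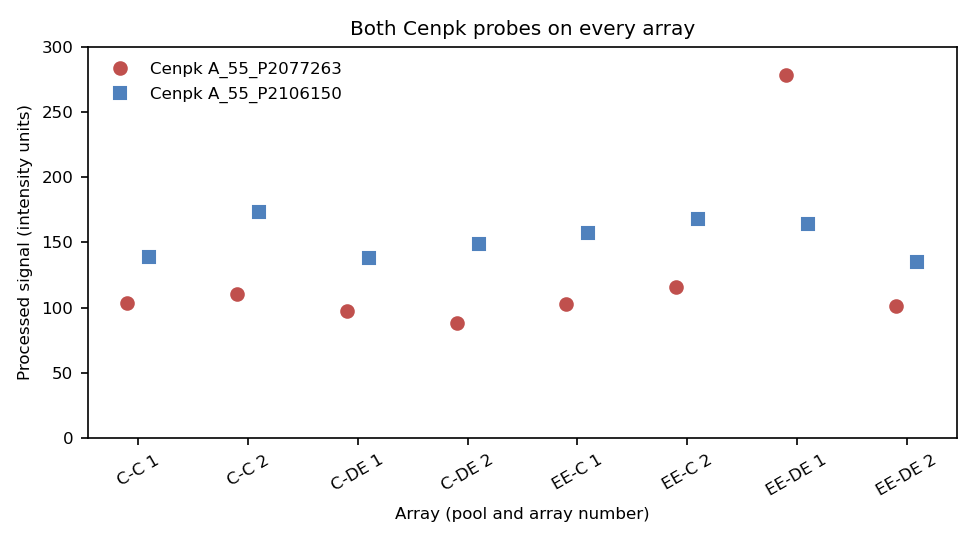
Processed signal, in intensity units on a linear axis from 0, of both Cenpk probes on each of the 8 arrays. Probe A_55_P2077263 reads 279 on one array, the first of EE-DE, and at most 116 elsewhere, while A_55_P2106150 stays between 135 and 174.

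The duplicates show how far apart 2 arrays of the same RNA can lie. Over all probes kept, the median distance between duplicates was 0.070 and 0.067 for the standard-cage pools C-C and C-DE, and 0.097 and 0.064 for the enriched pools EE-C and EE-DE. For the 9 member probes it was 0.062, 0.14, 0.11 and 0.099 in the same order. For the 5376 probes kept at levels within the range of the members other than Pcna it was 0.12, 0.12, 0.15 and 0.14. Duplicates of the same pool were 1.5-fold apart for 0.820% of all probes, 0.723%, 2.12% and 1.22%, again in that order, and for 1.82%, 1.54%, 4.24% and 3.33% of those at member levels. Among the members this was so only for Cenpk A_55_P2077263 in EE-DE, 1.37 apart. For Ccnb1 in C-C and Birc5 in C-C, the duplicate distances of 0.52 and 0.41 exceeded every difference between pool means of those probes. The same held for Mki67 A_55_P2073377 (0.42 in EE-C, against a largest pool difference of 0.28) and Ccna2 (0.14 in C-DE, against 0.065). It also held for Pcna in C-DE and for both Cenpk probes in EE-DE. Only Mcm2 and Mki67 A_51_P253803 had every duplicate distance below their largest pool difference.

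**Figure D4:**
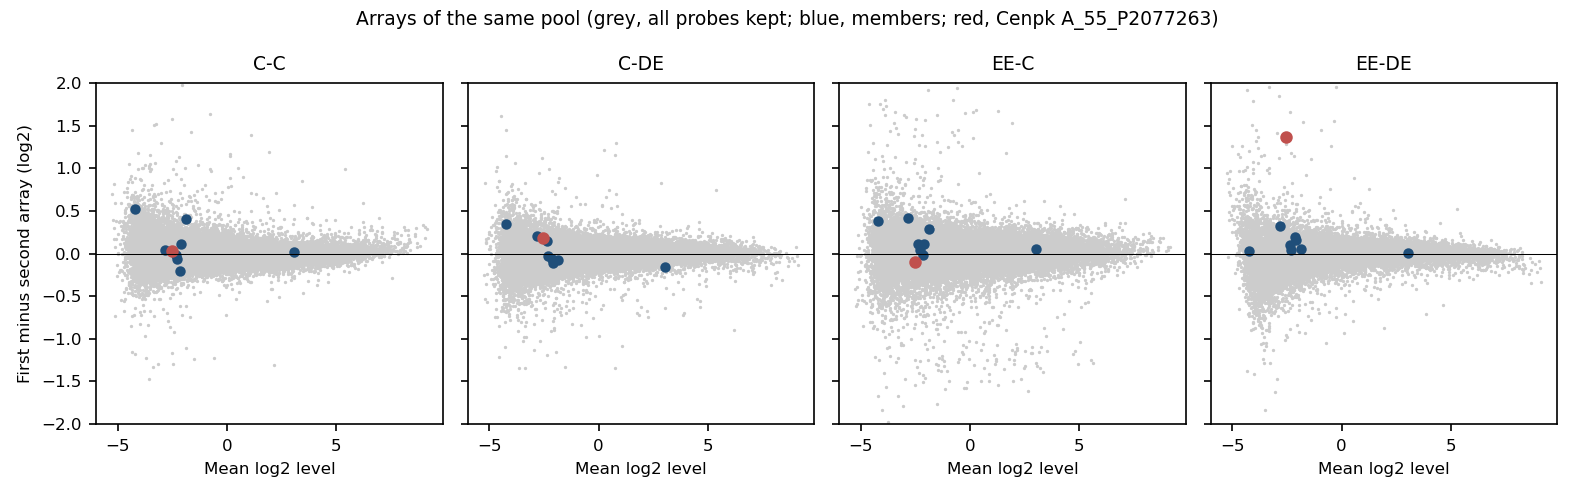
First minus second array of the same pool (log2) against the probe's mean log2 level, for all 21709 probes kept (grey) and the members (blue, with Cenpk A_55_P2077263 in red); the vertical axis is cut at −2 and 2. The spread narrows with the level, and the red point lies at 1.37 in EE-DE, apart from the other members.

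Top2a, Bub1 and Aurkb had no kept probe. Top2a encodes the topoisomerase that disentangles sister chromosomes, and its probe read 13.0 and 12.0 units (C-C), 8.94 and 12.1 (C-DE), 13.3 and 12.9 (EE-C) and 7.40 and 13.4 (EE-DE). It was well above background on 4 of the 8 arrays, both of them in EE-C and neither in EE-DE. Its bound in EE-DE lay above the EE-C level, so no fold could be given. Bub1, a kinase of the spindle checkpoint, was printed on 10 spots, and 1 spot on 1 array was well above background. The means over its spots ran from 3.85 to 7.17 units across the arrays, and the highest was on the first EE-DE array. Aurkb, the kinase of the passenger complex, was not well above background on any array, with 2.31 to 2.92 units on 7 arrays but 7.55 on one, the first of EE-DE. That array had the highest median background, 29 against 21 to 24 units, and 56.7% of its noncontrol spots were well above background, against 68.0% to 70.6% on the others. Signals this low order neither genes nor pools, and a change in these 3 genes was not detectable.

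Read as a group, each gene by its brightest kept probe, the members shifted little. Their median was 0.05 in EE-C/C-C, beside 0.01 for all probes, and 0.05 in EE-DE/C-DE, beside 7.4e-05. With exposure it was −0.12 in standard cages, beside −0.01, and −0.06 under enrichment, beside −0.01. The EE-C/C-C median turned to −0.04 without the first EE-C array and was 0.01 without the second C-C array. Normexp correction moved EE-DE/C-DE to 0.09 and the standard-cage exposure median to −0.07. Without the second C-DE array EE-DE/C-DE was 0.09, and EE-DE/EE-C was −0.13 without the second EE-C array and −7.6e-05 without the first. In EE-C/C-C none of the 9 member probes had pools that did not overlap, against 37.7% of all probes. In C-DE/C-C, 5 of 9 were lower in every pairing, against 22.4% of all probes; these were both Mki67 probes, Mcm2, Pcna and Cenpk A_55_P2077263. In EE-DE/C-DE, 4 of 9 were higher in every pairing, against 21.2%, and these were both Mki67 probes, Mcm2 and Birc5. In EE-DE/EE-C, 3 of 9 were lower in every pairing, against 19.6%, namely Mcm2, Pcna and Cenpk A_55_P2106150. In EE-DE/C-C, which differs in both housing and exposure, 3 of 9 were lower in every pairing, against 24.8%, namely Ccna2, Mcm2 and Pcna. All 3 turned above 0 with normexp correction, to 0.08, 0.08 and 0.0071. The comparisons share pools, so C-DE enters both the 5 and the 4, and 2 pairs of these probes share a gene.

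Averaged over both housings, the exposed pools were lower for 7 of the 7 genes, where 54.3% of all probes were lower, with a median of −0.11 and values from −0.11 to −0.03. The median was −0.06 with normexp correction or the mean over all kept probes of a gene, and −0.05 in the authors' table. By probes it was 8 of 9, since Cenpk A_55_P2077263 was 0.22 higher. Ccna2 turned under normexp correction, Cenpk in the authors' own value table, Ccnb1 without the first C-C or first EE-C array, and both Ccna2 and Ccnb1 without the second C-DE array. Averaged over both exposures, the enriched pools were higher for 5 of the 7, where 51.8% of all probes were higher, with a median of 0.03 and values from −0.03 to 0.21, and a median of 0.06 with normexp correction. The count was 6 when arrays were scaled on the median of the kept probes or taken from the authors' table, with Ccnb1 added, and under normexp Ccna2 took the place of Cenpk. With 1 array left out it ran from 4, without the first EE-DE array, to 6. No member probe reached 1.5-fold in these means, against 0.309% of all probes for housing and 0.253% for exposure.

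The additive fit of housing and exposure to the 4 pool means, by limma with 1 residual degree of freedom, called no probe for either term at an adjusted p under 0.05. At an unadjusted p under 0.05 it called 9.68% of all probes for housing and 7.4% for exposure, and 0 of the 9 member probes for either. For Mki67 A_51_P253803 the housing difference was 0.21 ± 0.074 (SE, 95% interval from −0.0096 to 0.42, limma adjusted p = 0.523). For Pcna the exposure difference was −0.11 ± 0.042 (SE, 95% interval from −0.23 to 0.0091, limma adjusted p = 0.679). For Cenpk A_55_P2077263 the housing interval ran from −0.17 to 0.97, so a change past 1.5-fold lay inside it. The fit takes any difference of the exposure between housings as error, and litters shared by the pools of one housing can make its housing p too small. Standard-cage pools lay in one column of the slide and enriched pools in the other, so housing and slide column cannot be told apart. Within each column the clean-air arrays lay in rows 1 and 2 and the exposed arrays in rows 3 and 4, so exposure and slide row cannot be told apart either.

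Other genes of the cell cycle were read from lists of replication and G1/S genes, of mitosis and G2/M genes and of centromere genes, 111 in all, of which 83 had a kept probe. Their median was 0.03 for EE-C/C-C, 0.04 for EE-DE/C-DE, −0.02 for C-DE/C-C and −0.0039 for EE-DE/EE-C. Between the exposed pools (EE-DE/C-DE), 28 of the 83 were higher and 9 lower in every pairing, against 21.2% and 21.0% of all probes. For C-DE/C-C, 12 were higher and 22 lower, against 18.5% and 22.4%. For EE-C/C-C, 20 were higher and 11 lower, against 20.2% and 17.5%. For EE-DE/EE-C, 16 were higher and 12 lower, against 14.6% and 19.6%, and for EE-DE/C-C, 21 and 14, against 22.2% and 24.8%. No gene of these lists reached 1.5-fold in all 4 pairings of any comparison. The replication list had 35 of 39 genes kept, with medians of 0.02 in both housing comparisons. The mitosis list had 32 of 52 kept and medians of 0.03 in EE-C/C-C and 0.05 in EE-DE/C-DE. Its 8 genes that were not well above background on any array included Ttk, Kif2c and Dlgap5.

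The genes of these lists with the largest mean housing difference are given as a description, since that difference chose them. Ndc80, which binds the kinetochore to microtubules, read −3.16 and −3.60 (C-C), −3.05 and −3.15 (C-DE), −4.18 and −3.89 (EE-C) and −3.78 and −3.11 (EE-DE). It was past the threshold for EE-C/C-C at −0.66 (pairings from −1.02 to −0.29) and for EE-DE/EE-C at 0.59 (pairings from 0.11 to 1.07), and its EE-DE duplicates lay apart by more than either. In the mitosis list it was followed by Spc24, a partner of Ndc80 in the same complex, at 0.26, and the kinase Pbk at 0.25. Among replication genes the mean housing differences were 0.14 for the licensing factor Cdt1, 0.13 for Cdk2 and −0.17 for Gins1, a subunit of the replicative helicase. Among centromere genes they were 0.21 for Cenpp, −0.19 for Cenpa, the histone variant of the centromere, and −0.14 for Apitd1.

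Genes that hold back the cycle formed a list of 18, of which 17 were kept, with medians of 0.04 in EE-C/C-C and 0.02 in EE-DE/C-DE. Btg2, an antiproliferative gene that is also induced by neuronal activity, read −0.25 and −0.54 (C-C), −0.28 and −0.07 (C-DE), −0.14 and 0.23 (EE-C) and 0.30 and 0.10 (EE-DE). The enriched pools were higher in every pairing, by 0.44 in EE-C/C-C (pairings from 0.11 to 0.77) and by 0.38 in EE-DE/C-DE (pairings from 0.17 to 0.59). Its housing difference chose it from the list, and 20.2% and 21.2% of all probes were higher in every pairing of these comparisons. Against C-C, EE-DE was 0.60 higher, past 1.5-fold, with pairings from 0.35 to 0.85. Rbl1 and Cdkn2c followed with mean housing differences of −0.13 and 0.11.

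Markers of the cells in which the members could be made were read beside them. Neuroblast genes had 12 of 12 kept and medians of −0.01 for EE-C/C-C, −0.05 for EE-DE/C-DE, 0.0033 for C-DE/C-C and −0.02 for EE-DE/EE-C, with no gene past 1.5-fold. Between the exposed pools 7 of the 12 were lower and 2 higher in every pairing, against 21.0% and 21.2% of all probes, while both Mki67 probes were higher. Neural progenitor genes (8 of 8 kept) had medians between −0.03 and −0.0047 in these comparisons. For EE-DE/C-DE, 2 of the 8 were lower in every pairing, near the share of all probes. Oligodendrocyte precursor genes (8 of 8) had medians between −0.08 and 0.04. The medians of the microglia and endothelium lists stayed within 0.06 of 0 in these 4 comparisons. Markers of bulb neurons were all kept, 11 of 11, with medians within 0.04 of 0.

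By list medians, genes of mature olfactory mucosa, marrow and bone moved more than those of bulb cells. Red cell genes moved less than mucosa, marrow or bone genes. The list of mature olfactory mucosa, which includes Omp of sensory neurons and Cyp2f2 of supporting cells, had 9 of 9 genes kept. Its median was −1.25 with exposure in standard cages (C-DE/C-C) and 1.67 between the exposed pools (EE-DE/C-DE). The pairings ran from −1.88 to −0.71 and from 1.16 to 2.19. It was −0.25 for EE-C/C-C and 0.74 for EE-DE/EE-C, where the pairings crossed 0, from −1.24 to 0.54 and from −0.13 to 1.78. Marrow and neutrophil genes, 10 of 10 kept, had medians of −0.54 for C-DE/C-C and 0.60 for EE-DE/C-DE, where Mki67 A_51_P253803 had −0.23 and 0.32. For EE-C/C-C and EE-DE/EE-C the marrow medians were 0.24 and −0.32, with pairings from −0.30 to 1.01 and from −1.34 to 0.68. Bone genes, 6 of 7 kept, had medians of −0.47 for EE-C/C-C, −0.52 for C-DE/C-C, 0.27 for EE-DE/C-DE and 0.27 for EE-DE/EE-C, with pairings on both sides of 0 in each. Red cell genes, 4 of 6 kept, had medians of −0.18 for C-DE/C-C (pairings from −0.38 to 0.08) and 0.19 for EE-DE/C-DE (pairings from 0.05 to 0.31), and 0.04 and −0.03 for EE-C/C-C and EE-DE/EE-C. The summed signal of the mucosal list, in multiples of the array's 75th percentile, was 65.5 to 80.0 (C-C), 58.4 to 67.6 (C-DE), 68.1 to 77.9 (EE-C) and 74.8 to 82.7 (EE-DE). Omp made up 85.2% to 95.8% of it, with −0.13 for C-DE/C-C and 0.20 for EE-DE/C-DE, and without Omp the sum was 5.05 to 9.0, 2.46 to 3.18, 3.14 to 8.28 and 7.22 to 12.3 in the same order. That of the marrow list was 4.86 to 5.79, 3.12 to 3.51, 4.03 to 10.3 and 4.24 to 6.43 in that order. Basal cells of the mucosa, which divide, had 2 of 4 markers kept, which differed in sign: Krt5 had −0.29 for C-DE/C-C and 0.24 for EE-DE/C-DE, and Trp63 had 0.02 and −0.02. The part of mucosa, marrow, bone or red cells in the member values was not tested.

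**Figure D5:**
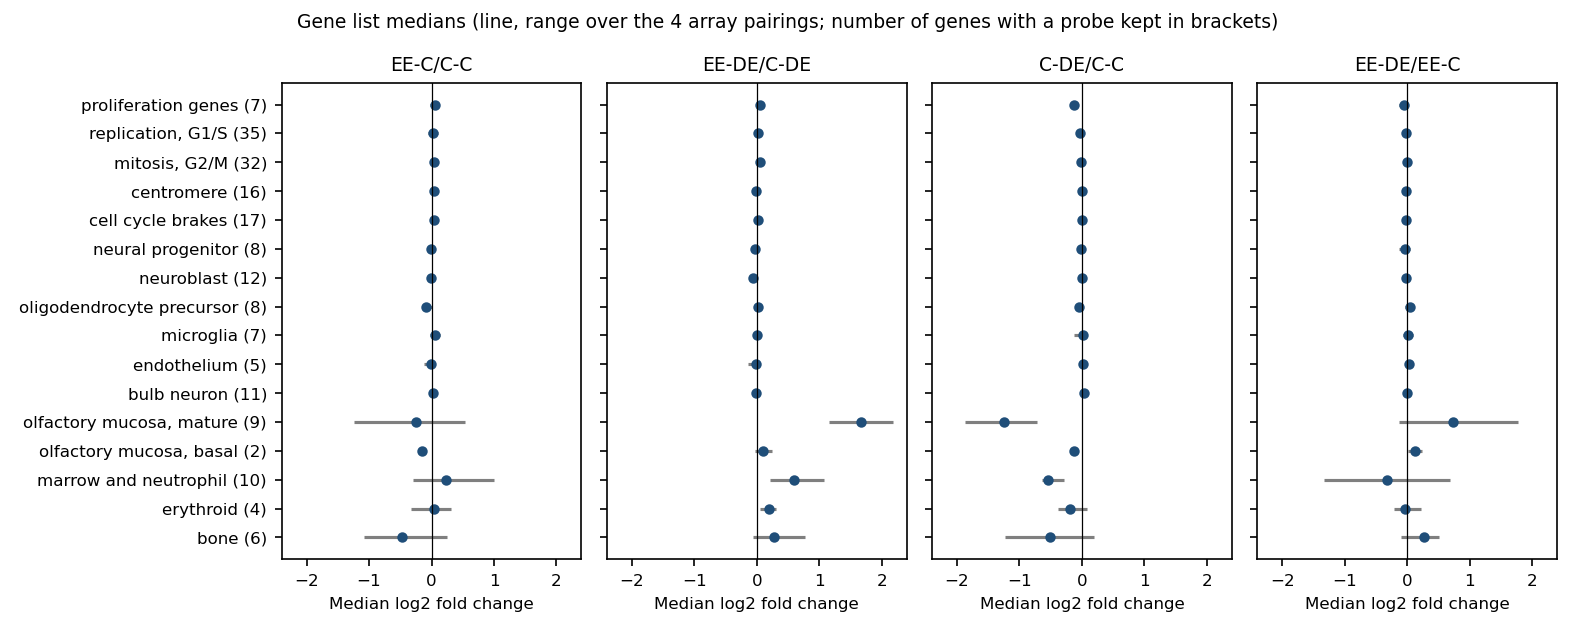
Median log2 difference of each gene list in 4 comparisons; points use pool means, lines span the medians of the 4 array pairings, and brackets give the number of genes with a kept probe. The lists of the cell cycle and of bulb cells lie near 0, while the mature mucosa list lies at −1.25 for C-DE/C-C and 1.67 for EE-DE/C-DE.

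The probes whose pattern was most like the members' were found from the mean of the 7 genes, each centred on its own mean, among 11369 named probes that varied at least as much over the 8 arrays (SD of 0.077). They were Uaca (Pearson's r of 0.975), Capsl (0.965), Spry3 (0.951), Cdh1 (0.948) and Dpyd (0.948), over 8 arrays that are 4 pools. None of the 5 reached 1.5-fold in a comparison. Cdh1, the cadherin of epithelial cells, had the largest SD of them, 0.168, with exposure differences of −0.19 in standard cages and −0.18 under enrichment.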

How the data were processed

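The 8 files hold intensity values for each spot, deposited by the authors as Feature Extraction 10.7.3.1 (submitters' processing notes) wrote them, background-subtracted, with no scaling across arrays. The authors also deposited a table of log2 values, which follow the log2 signal minus the 75th percentile, centred on each probe's median, to within 0.02 on all arrays for 99.4% of 21709 probes, and served as an alternative. Here the log2 processed signal minus that of the array's 75th percentile over noncontrol spots was used, and spots of a probe were averaged. Each group is 1 pool, so pools were compared without a test, apart from limma with Benjamini-Hochberg adjustment on the 4 pool means. Python 3.11.15 (numpy 2.4.6, pandas 2.3.3) and R 4.3.3 with limma 3.58.1 were used, and the steps were tested on simulated data.

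All members are named. Of the cell cycle lists, genes past 1.5-fold in all 4 pairings (of which there were none) and the 3 with the largest mean housing difference per list are named. The members and lists were chosen with earlier results of these data known. Alternatives were normexp correction (offset of 50), quantile normalization, another scale, the authors' table, 2 other filters, linear means, leaving out each array, all kept probes of a gene, no Cenpk, and quantile values or a trended robust fit for limma. The number of arrays limits the precision.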

Additional observations from a re-analysis of the deposited data

How the results depend on the processing

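The count of member probes past 1.5-fold differed from 0 only through Cenpk A_55_P2077263, except without a filter on dim probes, which adds probes of Aurkb, Birc5 and Ccnb1 near background. In EE-DE/C-DE the count was 1, and it was 3 without that filter, 0 with 1.5-fold asked of all 4 pairings, and 0 to 1 when 1 array was left out, the 0 without the first EE-DE array. The count for EE-DE/C-C was also 1, and was 3 without the filter, 0 with normexp correction, 0 with all 4 pairings, and 0 to 1 with 1 array left out, again 0 without the first EE-DE array. For EE-DE/EE-C it was 0, but 1 with quantile normalization, 1 with the mean of linear signals, 2 without the filter, and 0 to 1 with 1 array left out, the 1 without the second EE-C or second EE-DE array. In EE-C/C-C and in C-DE/C-C it was 0, and 1 without the filter. The value of that Cenpk probe in EE-DE/C-C turned from 0.62 to −0.069 without the first EE-DE array and was at most 1.30 with another array left out. Of 495 single-probe values under an alternative, 483 moved by less than 1 SD over the pairings of arrays. This count was partly fixed in advance, so it is no measure of stability. Leaving out 1 array always shifts a value by less than that SD, and the 2 other filters leave the value of a kept probe unchanged. All 11 that moved further, without turning a called value, were among the 45 under normexp correction.

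Of the group medians, 87 of 99 moved by less than that SD. Under normexp correction the median was 0.093 for EE-DE/C-DE, −0.072 for C-DE/C-C, 0.0071 for EE-DE/C-C and −0.058 for exposure, which was −0.055 in the authors' table and −0.060 with the mean over all kept probes of a gene. With 1 array left out, the median ran from −0.038 to 0.066 for EE-C/C-C, from 0.044 to 0.094 for EE-DE/C-DE, from −0.17 to −0.11 for C-DE/C-C, from −0.13 to −7.6e-05 for EE-DE/EE-C and from −0.077 to −0.015 for EE-DE/C-C. It turned below 0 in EE-C/C-C without the first EE-C array. The cause of these shifts was not tested. With limma's trended and robust variance, 2 probes passed for housing and 14 for exposure, and no member did. In both of these alternatives Mki67 A_51_P253803 lay under an unadjusted 0.05 for housing, which it had missed, and its adjusted values were 0.510 and 0.373; Pcna did so for exposure with the trended and robust variance (adjusted 0.377).

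No paired analysis was possible because the replicate numbers name the 2 technical arrays of 1 pool. Signal over background limits Top2a, Bub1 and Aurkb, which have no kept probe, and Ccnb1, whose duplicates lie farther apart than its pools in 3 of the 4 pools.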
